A study of Mus musculus with 23 samples.

Results

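Gene expression was compared between monocytes taken at day 28 and monocytes taken at day 2 after a hydrogel was placed under the skin of mice. The comparison used 6 of the 23 libraries of the series, those labelled monocytes at day 28 (n = 3, libraries A, B and C) and monocytes at day 2 (n = 3, libraries A, B and C). All 6 came from wildtype C57BL/6J mice that carried a poly(ethylene glycol) hydrogel, a synthetic water-swollen polymer network. Tissue and gel were explanted and digested with Liberase TM, and the monocytes are described as Cx3cr1-positive and Ly6C-high, against macrophages that are Cx3cr1-positive and Ly6C-low. The other groups are monocytes at day 14, monocytes without an implant, and macrophages at the same times, 3 libraries each except 2 for the macrophage controls. The labels give no age or sex, and they do not say whether a replicate was 1 mouse or a pool. The p-values therefore measure the spread between libraries, which was estimated over all 23 libraries in their 8 groups. The question that the design poses for these groups is how monocytes of the foreign body response differ between its early and its late stage.

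Monocytes are white blood cells that leave the circulation for injured or inflamed tissue. Ly6C-high monocytes, the classical kind in mice, enter tissue through the chemokine receptor Ccr2 and can become macrophages or antigen-presenting cells in the tissue. Around an implant, recruited monocytes and macrophages persist, fuse into giant cells and accompany the build-up of a fibrous capsule. Cholesterol handling in these cells is set by opposing programs. The sterol sensor SREBP2 drives cholesterol synthesis when sterols are scarce, and the nuclear receptor LXR, which Nr1h3 encodes in its alpha form, drives export when sterols accumulate.

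The 6 libraries held 13384522 to 20868586 counts, and 3 counts in a library correspond to 0.14 to 0.22 CPM, the count scaled to a fixed library total. All levels below are CPM with TMM scaling, and SD is over 3 libraries. Rank correlations were 0.936 to 0.965 within day 2, 0.931 to 0.947 within day 28 and 0.902 to 0.942 between the days. Genes of the mitochondrial genome took 1.18% to 2.88% of counts at day 2 and 0.609% to 0.997% at day 28. Of 13 myeloid identity genes, 0 passed at an adjusted p under 0.05 by edgeR, and 3 had an unadjusted p under 0.05. DESeq2 called 0 of them and limma voom 1. Over all 16260 tested genes, 2482 had an unadjusted p under 0.05 by edgeR. DESeq2 called 491 higher and 352 lower over all genes, and limma voom 378 and 254. The lysozyme gene Lyz2 averaged 65610 CPM at day 2 and 46590 CPM at day 28, and the transcription factor Spi1 266.7 and 759 CPM. Markers of other cells were detected in these libraries. The summed level of 18 neutrophil markers was 2935 to 6130 CPM at day 2 and 625 to 1083 CPM at day 28. That of 16 fibroblast markers was 13.4 to 149 CPM at day 2 and 301 to 730 CPM at day 28. S100a8 and S100a9, which monocytes also make, held most of the neutrophil sum at day 2, and the other 16 markers summed to 1283 to 2054 CPM at day 2 and 372 to 760 CPM at day 28. The sums of both lists did not overlap between the days, and all 18 and all 16 markers had counts in these libraries. The sum of 9 tested B cell markers was 244 to 335 CPM at day 2 and 156 to 191 CPM at day 28, without overlap. Most of it was Ighm, and the defining B cell genes Pax5 and Blk were at 0 in all 6 libraries. That of 10 endothelial markers was 12.2 to 22.1 CPM and 40.9 to 48 CPM, without overlap. That of 9 erythroid and platelet markers was 89 to 2590 CPM and 171 to 264 CPM, with the globin gene Hba-a1, which may share reads with Hba-a2, at 783.7, 52.1 and 0.908 CPM at day 2 and at 9.78, 0.683 and 2.71 CPM at day 28. None of the B cell, endothelial or erythroid and platelet markers passed in edgeR's test, and 2, 3 and 5 had an unadjusted p under 0.05. DESeq2 called 0, 1 higher and 5 lower, and limma voom 0 in each. Of 10 keratinocyte markers, 6 were at 0 in all 6 libraries (Krt5, Krt14, Krt1, Krt15, Dsg3 and Trp63). In bulk RNA, fewer cells of a type and less RNA per cell cannot be told apart.

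The genes of the sort gate were detected in every library. Ly6c2, which encodes Ly6C, was at 1393, 1778 and 1563 CPM at day 2 and at 2171, 836 and 991 CPM at day 28. Its log2 fold change of day 28 over day 2 was -0.24 ± 0.61 (standard error, SE; adjusted p = 0.90), and the groups overlapped. The near-identical Ly6c1 had 85.4 ± 14.3 CPM at day 2 and 90.8 ± 38.7 CPM at day 28 (SD, n = 3; log2 fold change 0.09 ± 0.45, adjusted p = 0.96 by edgeR). Reads may be split between these 2 genes. Cx3cr1, the fractalkine receptor, was at 82.1, 91.4 and 69.7 CPM at day 2 and at 84.1, 189 and 97.8 CPM at day 28 (log2 fold change 0.61 ± 0.36, adjusted p = 0.43). Ccr2 had 2771, 2626 and 2609 CPM at day 2 and 1019, 2114 and 2192 CPM at day 28. All 3 late values lay below the early ones, with a log2 fold change of -0.59 ± 0.39 and an adjusted p of 0.49.

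Of 16260 genes tested, 63 rose and 78 fell between day 2 and day 28, and 16119 did not pass. A gene is said to rise or fall where its p from the quasi-likelihood test of edgeR, adjusted by Benjamini-Hochberg over all genes, was under 0.05. The called genes are 0.387% of all tested in the upward and 0.48% in the downward direction. All 141 had groups that did not overlap. Over all tested genes, 8.84% had each day 28 library above each day 2 library and 10.4% had each below. Log2 fold changes of the called genes had sizes of 0.78 to 7.92, and the median over all tested genes was 0.00. The count rested on single libraries. Leaving out day 2 library A left 22 higher and 33 lower, day 2 B 15 and 30, day 2 C 60 and 50, day 28 A 69 and 47, day 28 B 19 and 28, and day 28 C 50 and 30. With the spread estimated from the 6 libraries alone, 6 rose and 12 fell. Each of the 141 genes kept its sign in every one of these fits, which groups without overlap all but fix in advance. Of the 141, 25 passed whichever of the 6 libraries was left out.

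**Figure D1:**
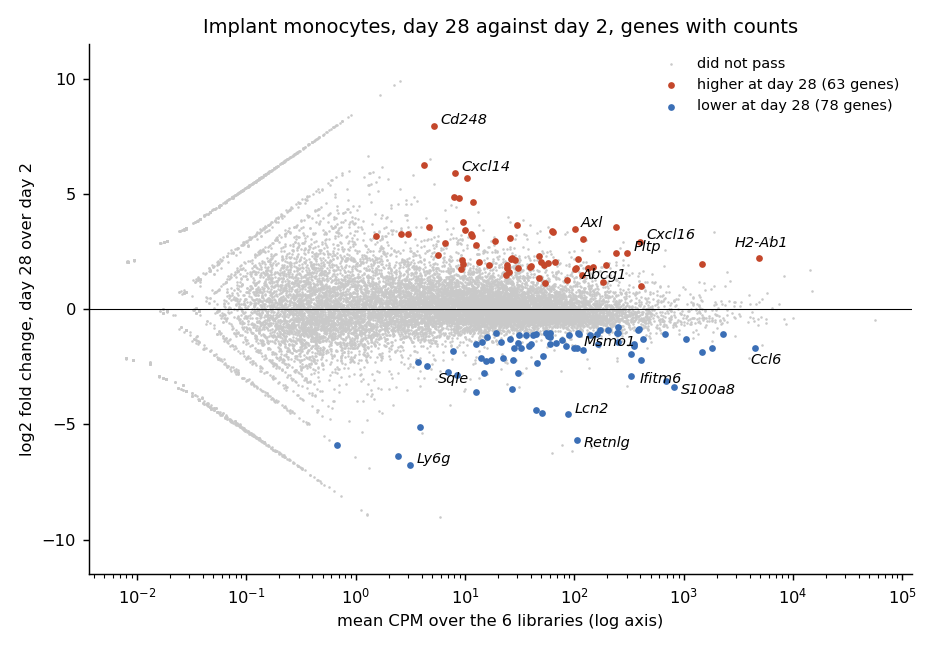
Log2 fold change of day 28 over day 2 (y) against the mean CPM over the 6 monocyte libraries (x, log axis), 1 point per tested gene with a count in them. Red points are the 63 genes that rose and blue points the 78 that fell, with sizes of 0.78 to 7.92 on the log2 scale.

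The 25 genes included the chemokine Cxcl16, the lipid genes Abcg1, Pltp and Nr1h3, the receptor Axl and the immune ligand Cd276 among the rises. Ifitm6, Serpinb1a, Retnlg, Lcn2, Ceacam1, Ly6g and the sterol enzyme Msmo1 were among the falls. Cxcl16 had the smallest adjusted p of all genes. It encodes a membrane-bound chemokine that also acts as a scavenger receptor. Its level was 79.5, 91.2 and 106 CPM at day 2 and 967, 658 and 470 CPM at day 28. Every late library was more than 4-fold above every early one, and the log2 fold change was 2.92 ± 0.33 (adjusted p = 0.00035, edgeR). The day 14 libraries, at 450, 256 and 643 CPM, lay above the same day 2 libraries, by which the gene was called. Cxcl16 overlaps Zmynd15, which lies on the other strand. Zmynd15 rose too (log2 fold change 3.18 ± 0.57, adjusted p = 0.0099), and the counts of the 2 genes cannot be fully separated without strand.

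Between day 2 and day 28, 5 genes of lipid handling rose and 5 enzymes of sterol synthesis fell. Of 27 tested genes of a lipid-associated list, 5 rose (Abcg1, Pltp, Nr1h3, Mylip and Abca1) and 0 fell, with a list median log2 fold change of 0.96. Of 28 tested genes of sterol and fatty acid synthesis, 0 rose and 5 fell (Msmo1, Sc5d, Fdft1, Cyp51 and Sqle), with a median of -0.68. These shares stand beside 0.387% higher and 0.48% lower over all genes by edgeR. The other tools called more over all genes, DESeq2 491 higher and 352 lower and limma voom 378 and 254. In the lipid-associated list DESeq2 called 9 higher and 0 lower, and limma voom 10 and 0. In the sterol and fatty acid list DESeq2 called 1 higher and 8 lower, and limma voom 1 and 6. Promoter sequence was available from RefSeq (GRCm38.p6) for 3 of the 5 sterol enzymes that fell, and Fdft1 and Sqle are not in the table used. The 250 bases before the start of each are shown because the genes moved together and because the CCAAT box, bound by NF-Y, is a known partner of sterol control. The window of the MHC gene H2-Eb1, which rose, is shown for contrast, since MHC class II promoters also carry a CCAAT box. Sequences run 5′ to 3′ on the gene's strand, and capitals mark CCAAT or its reverse complement ATTGG.
Msmo1, chr8:64733579-64733828, minus strand: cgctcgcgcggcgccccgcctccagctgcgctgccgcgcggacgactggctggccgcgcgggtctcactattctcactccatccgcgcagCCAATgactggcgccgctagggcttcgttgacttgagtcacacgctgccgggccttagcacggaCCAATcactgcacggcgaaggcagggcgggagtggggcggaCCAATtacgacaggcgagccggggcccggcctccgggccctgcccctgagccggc
Sc5d, chr9:42264301-42264550, minus strand: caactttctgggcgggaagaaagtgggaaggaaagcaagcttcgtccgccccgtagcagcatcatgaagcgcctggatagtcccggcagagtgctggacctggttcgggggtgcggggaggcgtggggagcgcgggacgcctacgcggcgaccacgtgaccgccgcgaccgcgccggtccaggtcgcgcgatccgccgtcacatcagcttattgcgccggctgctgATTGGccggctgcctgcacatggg
Cyp51, chr5:4104698-4104947, minus strand: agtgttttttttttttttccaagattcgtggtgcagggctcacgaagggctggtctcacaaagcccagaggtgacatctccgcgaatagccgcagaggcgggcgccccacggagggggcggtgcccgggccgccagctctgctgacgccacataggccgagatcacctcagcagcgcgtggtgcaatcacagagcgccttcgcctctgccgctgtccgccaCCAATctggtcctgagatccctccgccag
H2-Eb1, chr17:34305617-34305866, plus strand: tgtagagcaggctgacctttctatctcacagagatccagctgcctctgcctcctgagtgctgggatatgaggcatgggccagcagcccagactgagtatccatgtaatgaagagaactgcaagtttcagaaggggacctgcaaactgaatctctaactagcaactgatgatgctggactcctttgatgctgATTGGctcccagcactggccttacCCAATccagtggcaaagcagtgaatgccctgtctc

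Msmo1 held 3 such boxes, which began 160, 96 and 55 bases before the start. Sc5d and Cyp51 held 1 each, at 24 and 29 bases, and H2-Eb1 held 2, at 59 and 35 bases. CCAAT on either strand occurs in 33.8% of 32851 windows of this length, so its presence is common. A sterol regulatory element written as TCACNCCAC occurs in 1.05% of windows, and in none of the windows of the sterol enzymes. Of the 5 lipid genes that rose, 4 had a window (Abcg1 is not in the table) and 2 of these, Mylip and Pltp, held CCAAT. A match of letters is a description of the window and shows no binding.

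The sterol enzymes act in one pathway from squalene to cholesterol. Fdft1 joins farnesyl units into squalene, Sqle oxidises squalene, Cyp51 and Msmo1 remove methyl groups from the ring, and Sc5d introduces a late double bond. Msmo1 was at 140.8, 154 and 194 CPM at day 2 and at 39.2, 64.5 and 46.0 CPM at day 28. The groups were separated by a wide gap, and the log2 fold change was -1.71 ± 0.30 (adjusted p = 0.0085, edgeR). Sc5d fell from 49.0 ± 11.2 to 15.3 ± 4.09 CPM (SD, n = 3; log2 fold change -1.68 ± 0.33, adjusted p = 0.020). Cyp51 was at 58.4, 59.6 and 108 CPM at day 2 and at 8.32, 14.0 and 23.1 CPM at day 28 (-2.32 ± 0.52, adjusted p = 0.036). Sqle was at 16.1, 30.2 and 31.1 CPM at day 2 and at 2.36, 5.71 and 3.25 CPM at day 28, the largest fall of the 5 (-2.77 ± 0.63, adjusted p = 0.036). Fdft1 fell from 22.5 ± 8.44 to 5.23 ± 1.90 CPM (-2.11 ± 0.44, adjusted p = 0.024). Fdft1 overlaps Ctsb and Cyp51 overlaps Akap9, so their counts may hold reads of the neighbour. Msmo1 passed with any 1 library left out. The list count fell to 3 without day 2 A, to 4 without day 28 C and to 1 without any 1 of day 2 B, day 2 C, day 28 A or day 28 B. In the fit of the 6 libraries alone, 0 of the 5 passed. Hmgcs1, an early enzyme of the pathway that was chosen here after its values were seen, did not pass (-1.05 ± 0.50, adjusted p = 0.32). Of the 28 tested genes, 11 had all day 28 libraries below all day 2 libraries and 0 had all above, against 10.4% and 8.84% over all genes. At day 14 all 3 libraries lay below the lowest day 2 value for each of the 5 enzymes. These genes were called by their height in the same day 2 libraries, so nothing further is read from this.

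Abcg1 and Abca1 encode transporters that pass cholesterol out of the cell. Abcg1 was at 54.0, 47.5 and 36.9 CPM at day 2 and at 212.8, 141.2 and 123.4 CPM at day 28. The lowest late library was more than 2-fold above the highest early one, with a log2 fold change of 1.79 ± 0.27 (adjusted p = 0.0048, edgeR). Abca1 was at 139, 61.9 and 44.9 CPM at day 2 and at 203, 250 and 466 CPM at day 28 (1.90 ± 0.45, adjusted p = 0.046). Day 2 library A stood closest to the late group. Pltp, a phospholipid transfer protein, was at 117, 91.8 and 76.2 CPM at day 2 and at 798, 465 and 265 CPM at day 28 (2.42 ± 0.37, adjusted p = 0.0048). Nr1h3 was at 22.9, 14.8 and 10.03 CPM at day 2 and at 122.9, 66.7 and 46.3 CPM at day 28 (2.31 ± 0.36, adjusted p = 0.0052). Mylip, a ubiquitin ligase, rose from 10.6 ± 2.38 to 46.1 ± 10.96 CPM (SD, n = 3; 2.11 ± 0.38, adjusted p = 0.0099). In Abcg1, Pltp and Nr1h3 library A was the highest of the 3 in both groups. Abcg1, Pltp and Nr1h3 passed with any 1 library left out. Mylip was lost without day 2 A or B, and Abca1 without day 2 B, day 2 C, day 28 B or day 28 C. The list count was 3 without day 2 B and 4 to 6 without each of the others. In the fit of the 6 libraries alone, 0 of the 5 passed. Pltp overlaps Ctsa on the genome. The apolipoprotein Apoe, chosen here after its values were seen, was at 270, 696 and 3037 CPM at day 2 and at 17320, 9946 and 5356 CPM at day 28, and did not pass (3.03 ± 0.77, adjusted p = 0.072). The spread of Apoe within each day was wide, more than 10-fold at day 2.

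**Figure D2:**
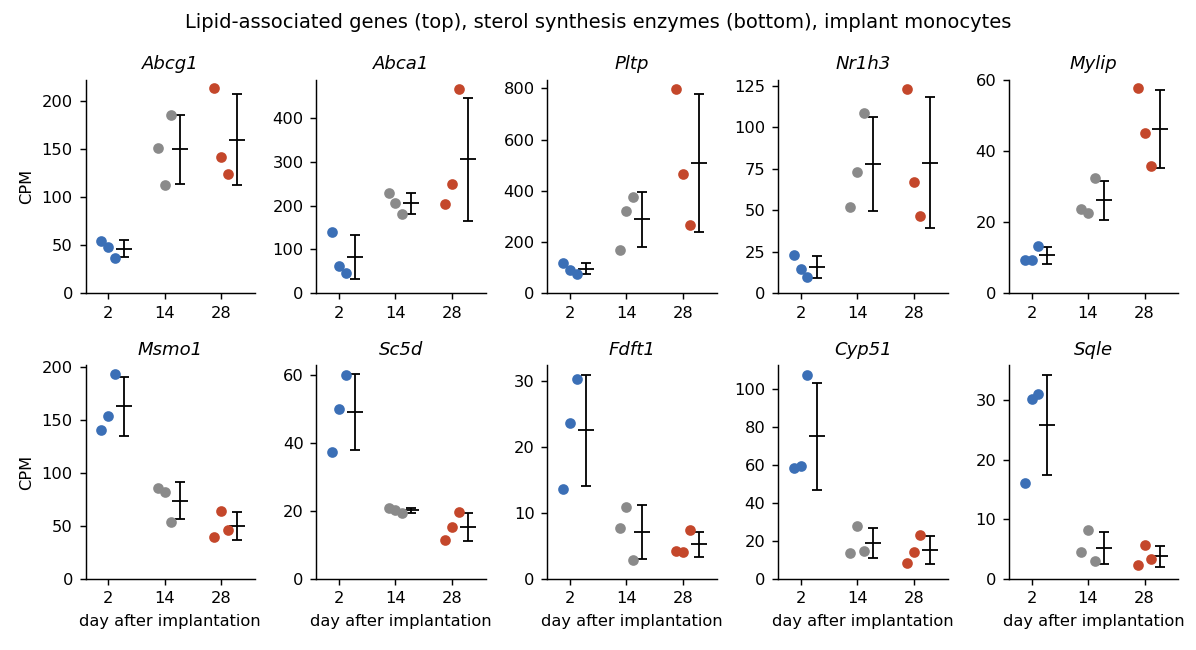
CPM (y, linear axis from 0) per library of implant monocytes at days 2, 14 and 28 (x), with the mean and SD of 3 libraries beside the points. The top row shows the lipid-associated genes Abcg1, Abca1, Pltp, Nr1h3 and Mylip, whose day 28 points all lie above their day 2 points, and the bottom row the sterol enzymes Msmo1, Sc5d, Fdft1, Cyp51 and Sqle, whose day 28 points all lie below.

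Of the antigen presentation genes, 2 chains of MHC class II rose. MHC class II molecules display peptides to helper T cells. Of 13 tested genes, H2-Ab1 and H2-Eb1 rose, 0 fell, and the median log2 fold change was 0.35. The share that rose was 15.4%, against 0.387% over all genes. DESeq2 called 4 higher and 0 lower, and limma voom 3 and 1. Their calls over all genes were 491 and 352, and 378 and 254. H2-Ab1, the beta chain of I-A, was at 578, 2607 and 2040 CPM at day 2 and at 11980, 5495 and 6774 CPM at day 28 (2.21 ± 0.48, adjusted p = 0.026, edgeR). Day 2 library A was the lowest and day 28 library A the highest. H2-Eb1, whose promoter is shown above, was at 533, 732 and 511 CPM at day 2 and at 3941, 1403 and 1608 CPM at day 28 (1.97 ± 0.43, adjusted p = 0.029). Without both A libraries, 0 of the 13 genes passed. The count was also 0 without day 2 A, day 2 C or day 28 A alone, and 1 without day 2 B. The invariant chain Cd74 was at 4458 ± 240 CPM at day 2 and 11940 ± 2760 CPM at day 28 (SD, n = 3), with groups that did not overlap (1.42 ± 0.38, adjusted p = 0.080). H2-Aa, the I-A alpha chain, gave 1.60 ± 0.45 with an adjusted p of 0.094.

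Of 16 genes of costimulation and immune checkpoints, 2 rose and 0 fell. The share that rose was 12.5%, against 0.387% over all genes. DESeq2 and limma voom each called 3 higher and 1 lower. Their calls over all genes were 491 and 352, and 378 and 254. Cd276, which encodes the ligand B7-H3, was at 1.73, 1.45 and 3.30 CPM at day 2 and at 11.46, 36.1 and 14.4 CPM at day 28 (3.25 ± 0.48, adjusted p = 0.0048, edgeR), and it passed with any 1 library left out. Cd274, which encodes the inhibitory ligand PD-L1, was at 65.8, 34.7 and 38.9 CPM at day 2 and at 140, 178 and 151 CPM at day 28 (1.75 ± 0.36, adjusted p = 0.022). Its day 14 values, at 179, 208 and 201 CPM, lay above those of day 28 in all libraries. Without day 2 B, day 2 C or day 28 B the adjusted p of Cd274 was 0.05 or more, reaching 0.13. Itgax, the integrin CD11c of dendritic cells and tissue macrophages, rose from 5.44 ± 1.03 to 46.5 ± 23.9 CPM (SD, n = 3; 3.09 ± 0.71, adjusted p = 0.038). It was lost when any 1 library other than day 28 A was left out. Of 16 dendritic cell markers 0 passed by edgeR, DESeq2 or limma voom and 0 had an unadjusted p under 0.05, with summed levels of 242 to 405 CPM at day 2 and 247 to 641 CPM at day 28.

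Chemokines moved in both directions, and over all genes 0.387% rose and 0.48% fell. Of 13 CXC chemokines, Cxcl16 and Cxcl14 rose and 0 fell. Cxcl14 was at 0.315, 0.389 and 0.0955 CPM at day 2 and at 10.96, 31.2 and 5.16 CPM at day 28 (5.90 ± 1.23, adjusted p = 0.026, edgeR). Of 14 CC chemokines, Ccl8 rose and Ccl6 and Ccl9 fell. Ccl6 was at 7275, 7816 and 5672 CPM at day 2 and at 2602, 1492 and 2288 CPM at day 28 (-1.70 ± 0.30, adjusted p = 0.0091). Ccl9 had narrow groups, at 3566, 2967 and 2755 CPM against 1543, 1385 and 1467 CPM (-1.08 ± 0.23, adjusted p = 0.027). Ccl8, a ligand of the receptor Ccr8 in mice, was at 2.99, 5.11 and 1.53 CPM at day 2 and at 5.73, 13.8 and 47.0 CPM at day 28 (2.79 ± 0.65, adjusted p = 0.046). The lowest late value of Ccl8 was close to the highest early one. The monocyte chemoattractant Ccl2 was at 695, 1022 and 385 CPM at day 2 and at 308, 154 and 197 CPM at day 28, and did not pass (-1.67 ± 0.46, adjusted p = 0.094).

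Of the genes that mark classical monocytes, those that passed were lower at day 28. Of 30 tested, 4 fell, among them Ifitm6, Hp and Mgst1, and 0 rose, with a median of -0.52, and 15 had all day 28 libraries below all day 2 libraries. Over all genes 0.387% rose, 0.48% fell and 10.4% had all day 28 libraries below. Ifitm6, a small membrane protein, was at 554, 646 and 542 CPM at day 2 and at 73.4, 61.0 and 96.9 CPM at day 28 (-2.91 ± 0.37, adjusted p = 0.00099, edgeR). Its day 14 libraries, at 327, 237 and 181 CPM, fell between the groups. Hp, the haemoglobin-binding protein haptoglobin, was at 2264, 2250 and 2389 CPM at day 2 and at 456, 860 and 589 CPM at day 28 (-1.86 ± 0.37, adjusted p = 0.019). Mgst1, a glutathione transferase of membranes, fell from 514 ± 56.0 to 182 ± 43.1 CPM (SD, n = 3; -1.50 ± 0.32, adjusted p = 0.026). Ifitm6 passed with any 1 library left out, and the count of 4 became 1 or 2 without each of the 6 libraries. Ly6c1, Ly6c2 and Ccr2 of the same list did not pass. The cells are described as Ly6C-high, so their sort bears on the levels of Ly6c1 and Ly6c2. All day 28 values of Ccr2 lay below those of day 2. Of 19 genes of nonclassical monocytes, Itgax rose and Ceacam1 and Pglyrp1 fell. Ceacam1, an adhesion receptor, was at 171, 179 and 207 CPM at day 2 and at 34.8, 74.6 and 53.9 CPM at day 28 (-1.77 ± 0.27, adjusted p = 0.0048). Its close paralogue Ceacam2, with which it may share reads, fell by 1.60 ± 0.27 on the log2 scale (adjusted p = 0.0061).

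Of the 12 largest falls, 5 were markers of neutrophils. Of 18 neutrophil markers, 7 fell and 0 rose (Retnlg, Lcn2, Ly6g, Ngp, S100a8, S100a9 and Wfdc21), with a median log2 fold change of -2.94. The share that fell was 38.9%, against 0.48% over all genes. Retnlg, a resistin-like protein of neutrophils, was at 317, 85.9 and 220 CPM at day 2 and at 4.16, 2.73 and 5.16 CPM at day 28 (-5.69 ± 0.85, adjusted p = 0.0048, edgeR). Lcn2, which binds bacterial iron carriers, was at 199, 152 and 150 CPM at day 2 and at 4.05, 6.98 and 10.4 CPM at day 28 (-4.54 ± 0.75, adjusted p = 0.0061). The alarmin S100a8 was at 2345, 865 and 1288 CPM at day 2 and at 124, 158 and 153 CPM at day 28 (-3.37 ± 0.70, adjusted p = 0.024). Its partner S100a9 fell by 3.12 ± 0.70 on the log2 scale (adjusted p = 0.033). Ly6g, the surface antigen that defines mouse neutrophils, was at 5.51, 4.002 and 9.12 CPM at day 2 and had 3 counts in all at day 28. The day 2 level was 126 times that of day 28, with a counting interval of 42.8 to 614 at the 95% level that covers counting error only. The falls of S100a8 and S100a9 were thus measured beside a fall of a neutrophil antigen, and the part of neutrophils in them was not tested. The count of 7 fell to 4 without day 2 A or day 28 A, and to 3 without day 28 B or day 28 C. Retnlg, Lcn2 and Ly6g passed with any 1 library left out. Control monocytes had a neutrophil marker sum of 3591 to 4995 CPM, and those of day 14 had 1191 to 2293 CPM.

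**Figure D3:**
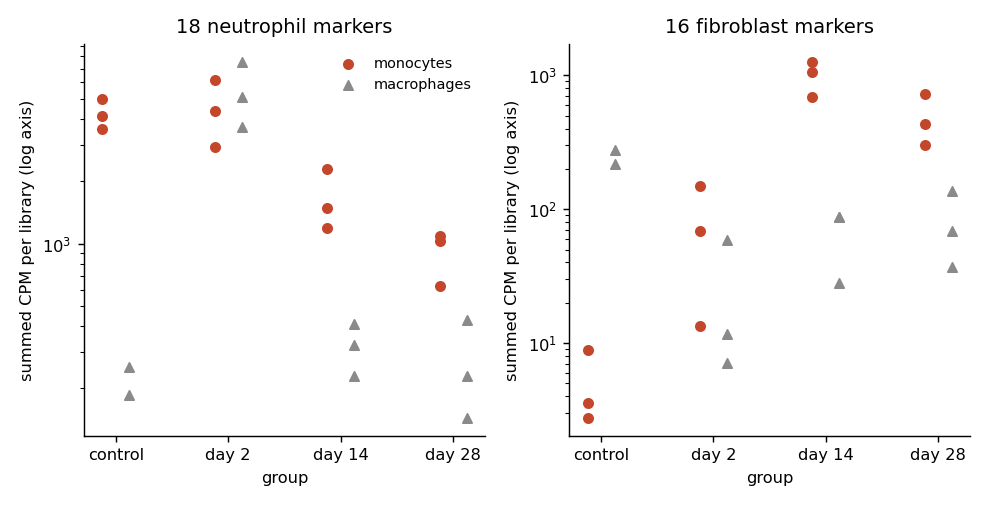
Summed CPM (y, log axis) of 18 neutrophil markers (left) and 16 fibroblast markers (right) per library, in controls and at days 2, 14 and 28 (x), for monocytes (circles) and macrophages (triangles). Monocyte neutrophil sums run from 2935 to 6130 CPM at day 2 and from 625 to 1083 CPM at day 28, and fibroblast sums from 13.4 to 149 CPM and from 301 to 730 CPM.

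Further large falls were of mixed kinds, and Wfdc21 among them is one of the neutrophil markers above. Mmp9, a gelatinase stored in neutrophil granules and also made by monocytes and osteoclasts, was at 126, 46.1 and 119 CPM at day 2 and at 3.03, 5.95 and 3.84 CPM at day 28 (-4.50 ± 0.90, adjusted p = 0.021, edgeR). Wfdc21 fell from 85.0 ± 22.3 to 4.02 ± 3.02 CPM (SD, n = 3; -4.40 ± 0.97, adjusted p = 0.031). Pglyrp1, which binds bacterial peptidoglycan, fell from 49.8 ± 11.8 to 4.56 ± 1.22 CPM (-3.45 ± 0.64, adjusted p = 0.013). Serpinb1a, an inhibitor of neutrophil serine proteases, was at 41.5, 54.6 and 64.0 CPM at day 2 and at 6.91, 7.56 and 8.66 CPM at day 28 (-2.79 ± 0.39, adjusted p = 0.0027). It was among the falls that held with any 1 library left out. Gpld1, a phospholipase that releases anchored proteins, fell by 3.59 ± 0.74 (adjusted p = 0.024), and the fatty acid binding protein Fabp7 by 2.84 ± 0.58 (adjusted p = 0.022) on the log2 scale. Gpld1 overlaps Mrs2.

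Among the largest rises were genes of matrix and stromal cells that were low at day 2. Cd248, a surface protein of fibroblasts and pericytes, had 2 counts in all at day 2 and 5.96, 21.4 and 3.79 CPM at day 28. The ratio of the days was 274 with a counting interval of 75.5 to 2270, and the test gave an adjusted p of 0.034 (edgeR). Mfap5, a microfibril protein, was at 3.70, 0.834 and 0.669 CPM at day 2 and at 26.1, 22.1 and 6.79 CPM at day 28 (3.44 ± 0.67, adjusted p = 0.018). It was the single fibroblast marker of 16 that passed, while DESeq2 called 8 of the 16 higher and limma voom 9. Over all genes DESeq2 called 491 higher and limma voom 378. In 9 of the 16 all day 28 libraries lay above all day 2 libraries and in 0 all below, against 8.84% and 10.4% over all genes. The median log2 fold change of the 16 was 2.59. Mmp2, a gelatinase of stromal cells, was at 1.26, 1.95 and 0.716 CPM at day 2 and at 12.2, 28.9 and 12.3 CPM at day 28 (3.76 ± 0.68, adjusted p = 0.010). Htra3, a secreted protease, was at 1.02, 0.778 and 0.955 CPM at day 2 and at 11.01, 51.5 and 6.05 CPM at day 28 (4.63 ± 0.96, adjusted p = 0.024). Plpp3, a lipid phosphatase, rose from 0.535 ± 0.382 to 15.3 ± 4.83 CPM (SD, n = 3; 4.87 ± 0.97, adjusted p = 0.020). Day 28 library B had the highest fibroblast marker sum of that day, with 434, 730 and 301 CPM in A, B and C. Library B was also the highest in Cd248, Mmp2, Htra3, Plpp3 and Cxcl14, while library A was the highest in Mfap5. Of the 63 rises, 29 were highest in B, a larger share than the 29.8% of all tested genes. The order B, A, C from high to low held for 12 of the 63 rises and for 14.7% of all tested genes. The part of fibroblast RNA in these rises was not tested. At day 14 the fibroblast sum of monocytes was higher still, at 683 to 1261 CPM. There Mfap5 was at 76.7, 48.7 and 32.3 CPM, above all its day 28 values, while Cxcl14 was at 0.623, 1.13 and 0.577 CPM, below all its day 28 values.

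The other large rises were of mixed kinds. Mmp14, a membrane-bound collagenase that activates Mmp2, was at 61.8, 27.7 and 24.2 CPM at day 2 and at 397, 753 and 179 CPM at day 28 (3.55 ± 0.66, adjusted p = 0.013, edgeR). Axl, a receptor that recognises dying cells, was at 16.2, 13.9 and 19.7 CPM at day 2 and at 187, 247 and 119 CPM at day 28 (3.47 ± 0.57, adjusted p = 0.0061). Its lowest late library was more than 5-fold above its highest early one, and it passed with any 1 library left out. Kcnn4, a calcium-activated potassium channel, rose from 10.95 ± 4.52 to 114 ± 71.7 CPM (SD, n = 3; 3.38 ± 0.70, adjusted p = 0.024). Spsb1, an adaptor of ubiquitin ligases, was at 2.596, 2.89 and 7.79 CPM at day 2 and at 20.9, 90.3 and 56.3 CPM at day 28 (3.65 ± 0.78, adjusted p = 0.026). Gdf15, a stress-induced cytokine, was at 0.157, 0.278 and 0.669 CPM at day 2 and at 48.4, 10.98 and 1.97 CPM at day 28 (5.70 ± 1.33, adjusted p = 0.045). Its late values spread more than 20-fold, with library A the highest. Pxdc1 rose from 0.614 ± 0.329 to 16.8 ± 6.05 CPM (4.8 ± 1.00, adjusted p = 0.026). At day 28 Mmp14, Axl and Kcnn4 had library B highest and C lowest, the order of the fibroblast marker sum, and Spsb1 was also highest in B. The part of fibroblast RNA in these 4 was not tested. Of the 12 largest rises, Axl alone passed with each of the 6 libraries left out in turn, and of the 12 largest falls Retnlg, Lcn2, Ifitm6 and Serpinb1a did.

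**Figure D4:**
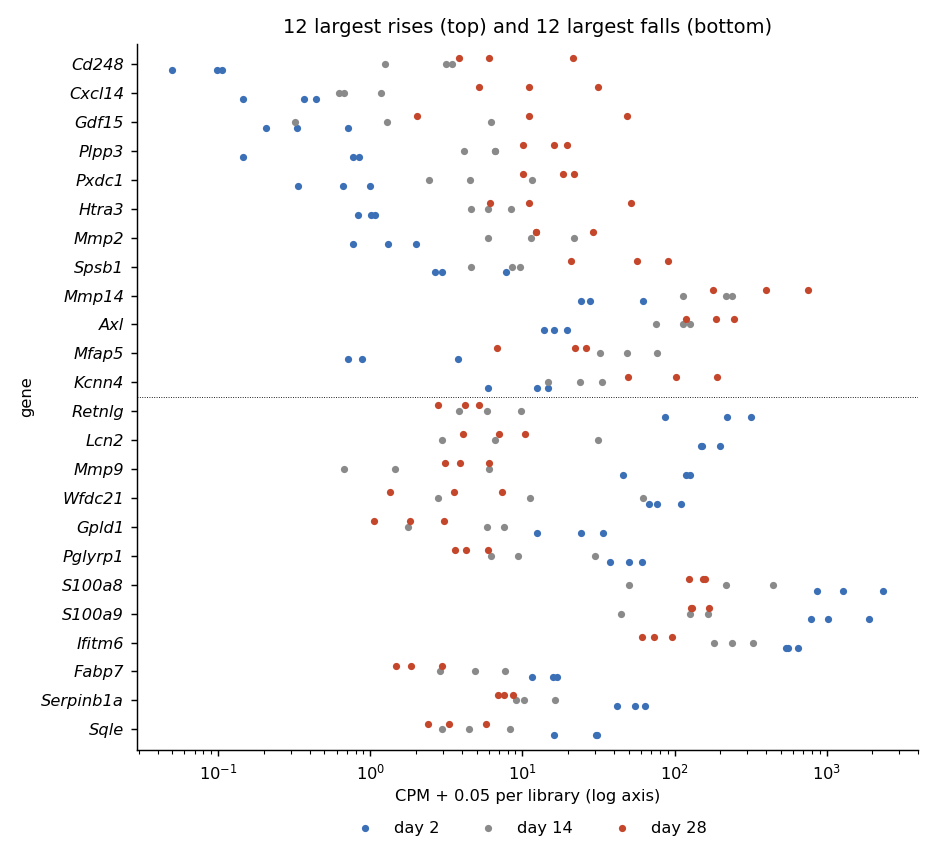
CPM plus 0.05 per library (x, log axis) of the 12 largest rises and the 12 largest falls (y) in implant monocytes at days 2, 14 and 28, 1 point per library. Day 2 and day 28 points do not overlap in any of the 24 genes.

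Of 29 giant cell and fusion genes, Acp5 and Sirpa rose and Mmp9 fell, with a median of 0.87. These are 6.9% higher and 3.45% lower, against 0.387% and 0.48% over all genes. In 9 of the 29 all day 28 libraries lay above all day 2 libraries and in 2 all below, against 8.84% and 10.4% over all genes. DESeq2 called 5 higher and 1 lower, and limma voom 4 and 1. Their calls over all genes were 491 and 352, and 378 and 254. Acp5, the acid phosphatase of osteoclasts, was at 69.8, 57.5 and 49.0 CPM at day 2 and at 310, 174 and 130 CPM at day 28 (1.80 ± 0.38, adjusted p = 0.025, edgeR). Sirpa, the receptor for the don't-eat-me signal Cd47, rose from 274 ± 20.3 to 548 ± 165 CPM (SD, n = 3; 1.00 ± 0.23, adjusted p = 0.041). With 1 library left out, Acp5 and Sirpa each passed in 1 of the 6 fits. Of 28 profibrotic mediators, Pdgfb rose and 0 fell, with a median of 0.95 and all day 28 libraries above all day 2 libraries in 7. The share that rose was 3.57%, against 0.387% over all genes, and DESeq2 called 5 higher and limma voom 4. Pdgfb, a growth factor for fibroblasts and pericytes, was at 0.865, 1.28 and 0.0955 CPM at day 2 and at 17.4, 5.02 and 3.69 CPM at day 28 (3.55 ± 0.74, adjusted p = 0.024). It passed in 2 of the 6 fits with 1 library left out. Vegfa, the vessel growth factor, was at 113, 85.2 and 54.97 CPM at day 2 and at 360, 423 and 213 CPM at day 28. Its groups did not overlap, and it did not pass (1.98 ± 0.59, adjusted p = 0.11). Spp1, which encodes osteopontin, was at 16780, 12170 and 3623 CPM at day 2 and at 13380, 31300 and 11470 CPM at day 28, with overlapping groups (0.79 ± 0.56, adjusted p = 0.52). All 3 day 14 libraries of Spp1, at 68040, 31790 and 50570 CPM, lay above both groups.

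Genes that are often used to describe inflammatory and repair states did not pass. The cytokine Il1b was at 8971, 6509 and 5078 CPM at day 2 and at 5205, 3432 and 4979 CPM at day 28 (-0.59 ± 0.43, adjusted p = 0.53, edgeR). Tnf was at 87.6, 42.7 and 46.8 CPM at day 2 and at 39.7, 24.1 and 20.0 CPM at day 28, with all late values below the early ones (-1.08 ± 0.45, adjusted p = 0.25). Nos2, the inducible nitric oxide synthase, had 31.3 ± 8.01 and 33.8 ± 23.3 CPM (SD, n = 3; 0.11 ± 0.83, adjusted p = 0.98). Arg1, the arginase of repair-type macrophages, was at 3345, 1907 and 821 CPM at day 2 and at 552, 2204 and 3490 CPM at day 28 (0.04 ± 0.51, adjusted p = 1.0). Mrc1, the mannose receptor, gave -0.44 ± 0.44 with an adjusted p of 0.68. The groups of Il1b, Nos2, Arg1 and Mrc1 overlapped. Of 25 inflammatory cytokines, Tnfsf14 fell (-1.71 ± 0.31, adjusted p = 0.010) and 0 rose, while DESeq2 and limma voom each called 2 higher and 2 lower. Of 24 pattern recognition genes, the adaptor Myd88 fell (-0.89 ± 0.21, adjusted p = 0.041) and 0 rose. Here DESeq2 called 2 higher and 1 lower, and limma voom 2 and 3. Their calls over all genes were 491 and 352, and 378 and 254. The shares that fell in these 2 lists were 4% and 4.17%, against 0.48% over all genes.

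Several large lists had no member that passed in edgeR's test. For comparison, 2482 of all 16260 tested genes had an unadjusted p under 0.05 by edgeR. In the full set DESeq2 called 491 higher and 352 lower, and limma voom 378 and 254. Of 50 interferon response genes 0 passed (median 0.45), 2 had an unadjusted p under 0.05, and DESeq2 and limma voom called 0. In 11 of them all day 28 libraries lay above all day 2 libraries, against 8.84% over all genes. Of 78 ribosomal protein genes 0 passed (median -0.70), 33 had an unadjusted p under 0.05, and DESeq2 called 3 lower and limma voom 2. In 30 of the 78 all day 28 libraries lay below, against 10.4% over all genes. Rpl4, of the large ribosomal subunit, was at 529 CPM on average at day 2 and 327 CPM at day 28 (-0.70 ± 0.22, adjusted p = 0.13, edgeR). Of 9 mitochondrially encoded genes 0 passed (median -1.19), 7 had an unadjusted p under 0.05, DESeq2 called 5 lower and limma voom 0. Of 81 nuclear genes of oxidative phosphorylation 0 passed (median -0.45), 6 had an unadjusted p under 0.05, DESeq2 called 2 lower, and limma voom called 1 higher and 3 lower. Lists of 21 hypoxia genes (median 0.15), 22 glycolysis genes (0.07), 49 lysosome genes (0.18), 30 genes of resident macrophages (0.35) and 50 cell cycle genes (0.05) also held 0 calls by edgeR. At an unadjusted p under 0.05 they held 4, 3, 10, 11 and 3 genes, DESeq2 called 2, 2, 6, 2 and 2, and limma voom 2, 2, 4, 1 and 2.

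For 121 of the 141 genes the day 14 mean lay between the means of day 2 and day 28, 53 of the 63 rises and 68 of the 78 falls. Over all tested genes this held for 4711, or 29%. The called genes were chosen for days that lie far apart, which leaves more room for a mean between them, so nothing is read from this share. Day 14 shares no library with the contrast, but a comparison of day 14 with either day shares that day's libraries. Against day 2, 118 genes passed at day 14, 0.726% of those tested, and 117 genes, 0.72%, passed between day 14 and day 28. Both counts rested on single libraries. The first became 16 without day 2 B, 0 without day 2 C, 52 without day 14 A and 14 without day 14 C. The second became 0 without day 14 A, 13 without day 14 B, 4 without day 14 C, 252 without day 28 A, 0 without day 28 B and 65 without day 28 C. Il7r, the interleukin 7 receptor, and Cd274 were exceptions in which day 14 was highest. Il7r was at 28.2, 18.1 and 11.9 CPM at day 2, at 131, 187 and 194 CPM at day 14 and at 66.8, 66.7 and 105 CPM at day 28 (day 28 over day 2, 2.04 ± 0.48, adjusted p = 0.048). It passed in 0 of the 6 fits with 1 library left out. Il7r is also 1 of 16 T and NK cell markers, of which it alone passed (6.25%, against 0.387% of all genes higher). The median log2 fold change of the 16 was -2.19, and 3 were positive. Their sums overlapped, at 31.3 to 247 CPM at day 2 and 88 to 114 CPM at day 28.

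The same contrast in macrophages gave 692 called genes, 4.26% of those tested. This count became 166, 215 and 253 without day 2 A, B and C, and 165, 137 and 1233 without day 28 A, B and C of the macrophages. Of the 141 genes called in monocytes, 119 had the same sign in macrophages. The share of all tested genes with the same sign in both was not computed, so nothing is read from the 119. In macrophages 46 of the 141 were called in the same direction, 18 higher and 28 lower. These 46 are 32.6% of the monocyte calls and 6.65% of the macrophage calls. Shared rises included Cd276 (4.23 ± 0.51 in macrophages, adjusted p = 0.00014), Axl (5.17 ± 0.62, adjusted p = 0.00014), H2-Ab1 (1.94 ± 0.47, adjusted p = 0.026) and Cxcl16 (1.29 ± 0.31, adjusted p = 0.027), by edgeR. Shared falls included Ifitm6 (-3.10 ± 0.37, adjusted p = 0.00014), Ccl6 (-2.32 ± 0.31, adjusted p = 0.00034) and Retnlg (-6.52 ± 0.89, adjusted p = 0.00038). The test of the difference itself, an interaction of cell type and day, called 0 genes (0%). At an unadjusted p under 0.05 it held 2053 genes, and the smallest adjusted p was 0.052. DESeq2 called 302 genes in this test and limma voom 518, so the count of 0 is that of edgeR's test. Without macrophage day 28 library C, edgeR called 430, and without each other library 0 to 3.

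Opposite calls in the 2 cell types were made for 2 of the 141 genes. Cyp51, which fell in monocytes, rose in macrophages from a mean of 6.595 to 34.5 CPM (2.4 ± 0.53, adjusted p = 0.017, edgeR). The difference between the cell types was -4.72 ± 0.75 on the log2 scale, with the smallest adjusted p of the interaction test (0.052). Ccl8 rose in monocytes and fell in macrophages from 1015 to 175 CPM (-2.53 ± 0.63, adjusted p = 0.029), a difference of 5.32 ± 0.91 (adjusted p = 0.061). The other 4 enzymes that fell in monocytes did not pass in macrophages, with Msmo1 at 0.61 ± 0.29 (adjusted p = 0.22), Sqle at 0.56 ± 0.59 (adjusted p = 0.59), Fdft1 at 0.49 ± 0.42 (adjusted p = 0.51) and Sc5d at 0.04 ± 0.33 (adjusted p = 0.98). Of the 28 tested genes of sterol and fatty acid synthesis, 3 rose in macrophages and 1 fell, with a median of 1.34 against 0.04 over all genes. Besides Cyp51 they included Dhcr7, which catalyses the last step to cholesterol and rose (2.65 ± 0.50, adjusted p = 0.0068), and Mvd, of the mevalonate pathway, which fell (-1.52 ± 0.31, adjusted p = 0.0098). In monocytes the list median was -0.68, and the difference between cell types did not pass for Dhcr7 (adjusted p = 0.13) or Mvd (adjusted p = 0.33). For Msmo1 the difference between cell types was -2.32 ± 0.42 (adjusted p = 0.061). Abcg1, Pltp, Nr1h3, Mylip and Abca1 did not pass in macrophages, with log2 fold changes of 0.69, 0.69, 0.19, 0.52 and 1.16, and their difference between cell types did not pass either (adjusted p of 0.25, 0.19, 0.13, 0.24 and 0.65).

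**Figure D5:**
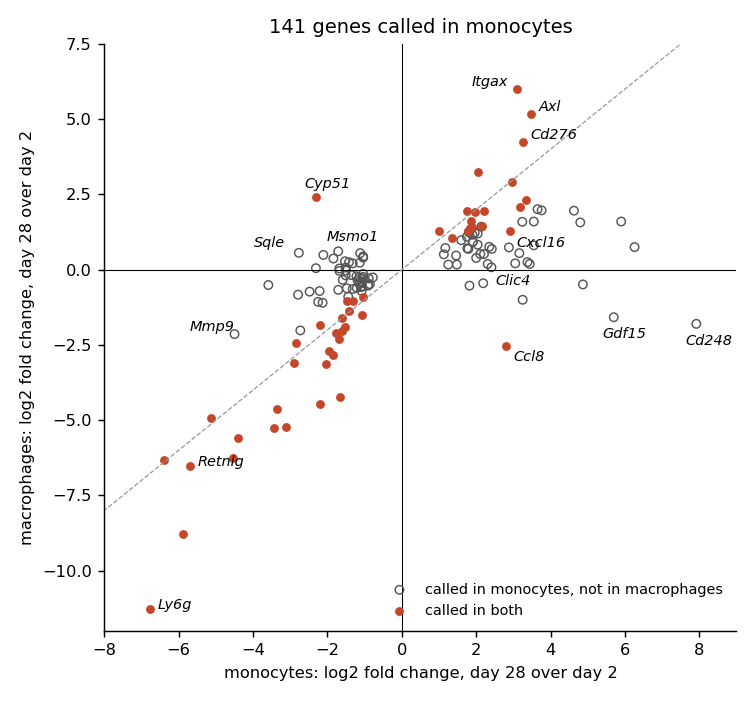
Log2 fold change of day 28 over day 2 in macrophages (y) against that in monocytes (x) for the 141 genes called in monocytes. Filled points were also called in macrophages, 46 in the same direction and Cyp51 and Ccl8 in the opposite one, and the dashed line marks equal change.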

How the data were processed

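Sorted monocytes and macrophages from implanted and control mice were sequenced by SMART-Seq v4 and Nextera XT as single reads of 75 bases, per the labels' protocols. The submitters' processing notes name bcl2fastq, the genome GRCm38, the aligner STAR 2.4.1d and featureCounts of Subread 1.5.1. For the gene annotation, strandedness and multiply mapped reads, the settings were not stated in the labels. The authors deposited raw counts for 47729 gene entries in 23 libraries of 9303153 to 32994092 counts. Symbols and coordinates came from GENCODE M21, which named 47310 entries, and the other 419 held 0.095% of counts.

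Counts were fitted in R 4.3.3 with edgeR 4.0.16 (TMM, filterByExpr, robust quasi-likelihood F test, 8 groups, prior count 0.125), which left 16260 genes. Standard errors were computed by dividing each absolute log2 fold change by the root of its F value. The rule for named genes took the 12 largest called rises and falls that reached 10 CPM on average in the higher group and whose groups did not overlap. It left out predicted, immunoglobulin, T cell receptor and mitochondrial genes, and added up to 4 members per list by adjusted p and 12 followed genes. A few genes picked this way were left out. Apoe, Hmgcs1, Dhcr7, Mvd, Hba-a1, Il7r, Zmynd15, Ceacam2, the motifs and the genes described for their stability with a library left out or for macrophages were chosen after their values were seen. Members and lists were chosen with earlier results of these data known. The alternatives were DESeq2 1.42.0, limma 3.58.1 voom, other scaling and filters, a replicate block, thinning, fewer libraries, glmTreat and a length covariate. The method was tested on simulated data. Counting intervals treat reads as independent. Replicate letters were not used to pair the samples in the main fit.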

Additional observations from a re-analysis of the deposited data

How the results depend on the processing

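The 141 genes kept their sign under every alternative, which their groups without overlap all but fixed in advance. The number called moved with several of the alternatives. Of the main 63 higher and 78 lower, DESeq2 size factors gave 64 and 69, and a prior count of 2 gave 63 and 78. DESeq2 gave 491 and 352, limma voom 378 and 254, no low count filter 893 and 196, counts thinned to the lowest total 110 and 89, the 12 monocyte libraries alone 212 and 92, and the 6 libraries alone 6 and 12. Requiring a change of over 2-fold gave 2 and 5. A length covariate (215 and 186) and leaving out both A libraries (24 and 18) were added after the data were seen. Leaving out 1 library gave 15 to 69 higher and 28 to 50 lower. The labels do not say what the replicate letters stand for, or whether they mark a shared day or batch. Deviations of same-lettered libraries had correlations of 0.02, -0.01 and 0.07, and those of differently lettered libraries -0.17 to 0.18. A replicate block gave 49 and 53. For day 14 against day 2 (118), the values were 741 without the filter, 586 by DESeq2 and 525 by voom, and 0 to 159 with 1 library left out. For day 28 against day 14 (117), they were 1523, 1513 and 256, 2 with the replicate block, 210 thinned, and 0 to 252. For macrophages (692), they were 1681, 1896 and 2997, 397 with the block, and 137 to 1233. For the interaction (0), they were 677, 302 and 518, 7 thinned, and 0 to 430. The cause of these differences was not tested. Of 648 values of named genes under alternatives, 495 were on the same side of the threshold in the same direction, 148 no longer passed, 5 newly passed and 0 reversed. A reversal had little room in the called genes, whose groups did not overlap. Depth limits genes near 3 counts, such as Cd248 and Ly6g.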

Other observations

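Some of the rises and falls that passed with any 1 of the 6 libraries left out belong to no list described above. Among the rises, Clic4, a chloride intracellular channel protein, was at 63.6, 57.9 and 108 CPM at day 2 and at 246, 599 and 373 CPM at day 28 (log2 fold change 2.41 ± 0.39, adjusted p = 0.0061, edgeR). Rcan1, an inhibitor of calcineurin, rose from 39.8 ± 11.99 to 178 ± 56.5 CPM (SD, n = 3; 2.16 ± 0.36, adjusted p = 0.0064). Dusp6, a phosphatase that switches off ERK, rose from 64.9 ± 20.0 to 231 ± 79.9 CPM (1.83 ± 0.31, adjusted p = 0.0066), and the semaphorin receptor Nrp2 by 1.91 ± 0.33 (adjusted p = 0.0073). Among the falls, Lsp1, an actin-binding protein of leukocytes, was at 1305, 1422 and 1727 CPM at day 2 and at 571, 601 and 617 CPM at day 28 (-1.32 ± 0.22, adjusted p = 0.0061). C1galt1c1, the chaperone of an O-glycan synthase, fell from 150 ± 14.1 to 46.8 ± 14.1 CPM (-1.68 ± 0.27, adjusted p = 0.0052). In macrophages Clic4 gave 0.08 ± 0.37 (adjusted p = 0.93) and C1galt1c1 -0.04 ± 0.26 (adjusted p = 0.96), with differences between cell types that did not pass (adjusted p of 0.13 for both). Samsn1 and Gapt, adaptor proteins of blood cells, fell in both cell types, by 1.52 ± 0.26 and 1.48 ± 0.25 in monocytes (adjusted p = 0.0070 and 0.0064) and by 1.90 ± 0.26 and 1.04 ± 0.25 in macrophages (adjusted p = 0.00042 and 0.025).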
